A study of Mus musculus with 9 samples.

Results

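Matrix metalloproteinases (MMPs) and the tissue inhibitors of metalloproteinases (TIMPs) were followed in mouse embryonic fibroblasts (MEFs), which are cultured connective tissue cells, after ectopic expression of a *CRX* homeobox gene. The genes were the 10 rows of the count table named *Mmp2*, *Mmp3*, *Mmp9*, *Mmp10*, *Mmp13*, *Mmp14*, *Mmp19*, *Timp1*, *Timp2* and *Timp3*, out of 22068 genes listed. CRX is a paired-type homeodomain transcription factor of the photoreceptors. The comparison asked how the CRX proteins of a metatherian and of a eutherian mammal alter the transcriptome of the same cells. All cells were primary C57Bl/6 MEFs at passage 2, obtained commercially, and were electroporated with a plasmid carrying a puromycin resistance gene. In 3 libraries the plasmid also held V5-tagged opossum *CRX* (metatherian CRX), in 3 it held V5-tagged human *CRX* (eutherian CRX), and in 3 it held no homeobox gene (control). The sample labels list the V5 tag for the control as well. Puromycin selection lasted 5 days in every group. The labels place a recovery of 48 h after the selection, whereas the methods of the study place it before the selection and give an overnight culture afterwards. The cells are not the photoreceptors in which *CRX* acts, nor the early embryos in which the study proposes a role for metatherian *CRX*. A MEF culture can hold more than 1 kind of cell. In such bulk samples, fewer cells of a type and less RNA per cell cannot be told apart. The sources do not say whether the 3 libraries of a group came from separate cultures, so that the p-values measure the spread between these libraries, which may be technical.

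MMPs are zinc-dependent endopeptidases that are made as inactive precursors and degrade the extracellular matrix once the propeptide has been removed. MMP3 and MMP10 (stromelysins) cleave many matrix proteins and activate other MMP precursors, MMP13 is a collagenase, MMP2 and MMP9 are gelatinases, and MMP14 is a membrane-anchored collagenase that activates the MMP2 precursor on the cell surface. TIMPs bind the active site of MMPs, TIMP2 also takes part in the activation of the MMP2 precursor by MMP14, and TIMP3 is held in the matrix and also inhibits ADAM and ADAMTS proteases. Fibroblasts are a main source of these proteins in connective tissue.

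The libraries held 54145701 to 94699657 counts on genes and came from 1 sequencing run. *Crx* reads, which in these cells can come from a plasmid with a sequence close to the mouse gene, numbered 0 in each control library, 627, 995 and 313 in the eutherian CRX libraries and 4, 0 and 0 in the metatherian CRX libraries, so that this gene checks the label of the eutherian group but not that of the opossum construct. The first principal component of the log2 CPM values of the 10100 genes tested held 56.0% of the variance. Eutherian CRX replicate 3 lay at 55.0 on it, far from replicates 1 and 2 at -27.4 and -30.9, and within each group the library numbered 3 had the highest value. For the genes in the fit, the comparisons with control are therefore also given without eutherian CRX replicate 3 and without the 3 libraries numbered 3. The latter setting was chosen after the data had been seen.

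*Mmp3*, *Mmp10* and *Mmp13* lie within a cluster of MMP genes on chromosome 9, and their promoters are shown because these had the 3 highest fold changes with metatherian CRX among the 10 genes. Promoters were taken from a set of RefSeq promoters (GRCm38.p6) that held 7 of the 10 genes, and are given from 250 bases upstream to the base before the transcription start. They cover chr9:7445572-7445821 for *Mmp3*, chr9:7502092-7502341 for *Mmp10* and chr9:7272264-7272513 for *Mmp13*, all on the plus strand. Capitals mark the AP-1 motif, TGANTCA, which reads the same on both strands.
Mmp3: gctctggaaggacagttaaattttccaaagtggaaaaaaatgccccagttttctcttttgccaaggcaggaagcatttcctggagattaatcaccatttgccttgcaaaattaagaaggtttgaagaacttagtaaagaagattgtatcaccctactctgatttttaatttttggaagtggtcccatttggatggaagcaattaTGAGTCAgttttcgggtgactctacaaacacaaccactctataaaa
Mmp10: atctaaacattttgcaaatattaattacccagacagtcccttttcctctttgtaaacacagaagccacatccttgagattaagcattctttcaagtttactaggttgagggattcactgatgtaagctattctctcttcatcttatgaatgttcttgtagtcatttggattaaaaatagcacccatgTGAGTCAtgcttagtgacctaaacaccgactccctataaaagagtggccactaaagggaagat
Mmp13: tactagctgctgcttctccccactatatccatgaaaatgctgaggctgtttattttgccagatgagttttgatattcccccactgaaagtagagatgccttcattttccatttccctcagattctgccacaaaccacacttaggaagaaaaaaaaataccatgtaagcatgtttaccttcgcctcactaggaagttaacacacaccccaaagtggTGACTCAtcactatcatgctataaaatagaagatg
The AP-1 motif lay at -46 to -40 in *Mmp3*, at -63 to -57 in *Mmp10* and at -35 to -29 in *Mmp13*, counted back from the start. It was found in these 3 of the 7 promoters, and in 6.75% of the 32851 promoters of the same length. TATAAA, searched on both strands, was found in the same 3 of 7 and in 12.4% of all promoters. In *Mmp3* it lay at -7 to -2, close to the annotated start. TAATCC, the core recognised by bicoid-type homeodomains such as that of CRX, was found on the minus strand of *Mmp10* alone among the 7, at -84 to -79, and in 6.25% of all promoters. AGGAAG, a core of ETS factor sites, was found in *Mmp3*, *Mmp13*, *Mmp14*, *Timp1* and *Timp3*, and in 29.5% of all promoters, again on either strand. A match is a description of the letters in this window, and binding was not measured.

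The inhibitors were the most abundant transcripts of the family and *Mmp13*, *Mmp10* and *Mmp9* were the least abundant in control cells. Levels between genes are compared as FPKM, computed from the counts, the scaled library size and the summed exon length, and given as the mean ± SD of 3 libraries. In control cells, *Timp3*, *Timp2* and *Timp1* stood at 1427 ± 679, 1358 ± 159 and 1213 ± 302 FPKM, and their ranges overlapped. *Mmp14* and *Mmp2* followed at 371 ± 10.1 and 307 ± 22.5 FPKM, with no overlap between the libraries of these genes. *Mmp3* stood at 34.1 ± 14.4 and *Mmp19* at 18.0 ± 3.66 FPKM, with overlapping ranges, ahead of *Mmp13* at 5.96 ± 2.43 FPKM. *Mmp10* at 0.913 ± 0.854 and *Mmp9* at 0.376 ± 0.485 FPKM were lowest and overlapped each other. With metatherian CRX the order of the lower genes differed. *Mmp3* at 129 ± 52.5 FPKM came next below *Mmp2* at 224 ± 5.19, and *Mmp13* at 27.3 ± 2.52 lay above *Mmp19* at 20.5 ± 3.41 FPKM without overlap. *Mmp14* at 229 ± 10.4 FPKM could not be separated from *Mmp2* there, since their ranges overlapped.

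**Figure D1:**
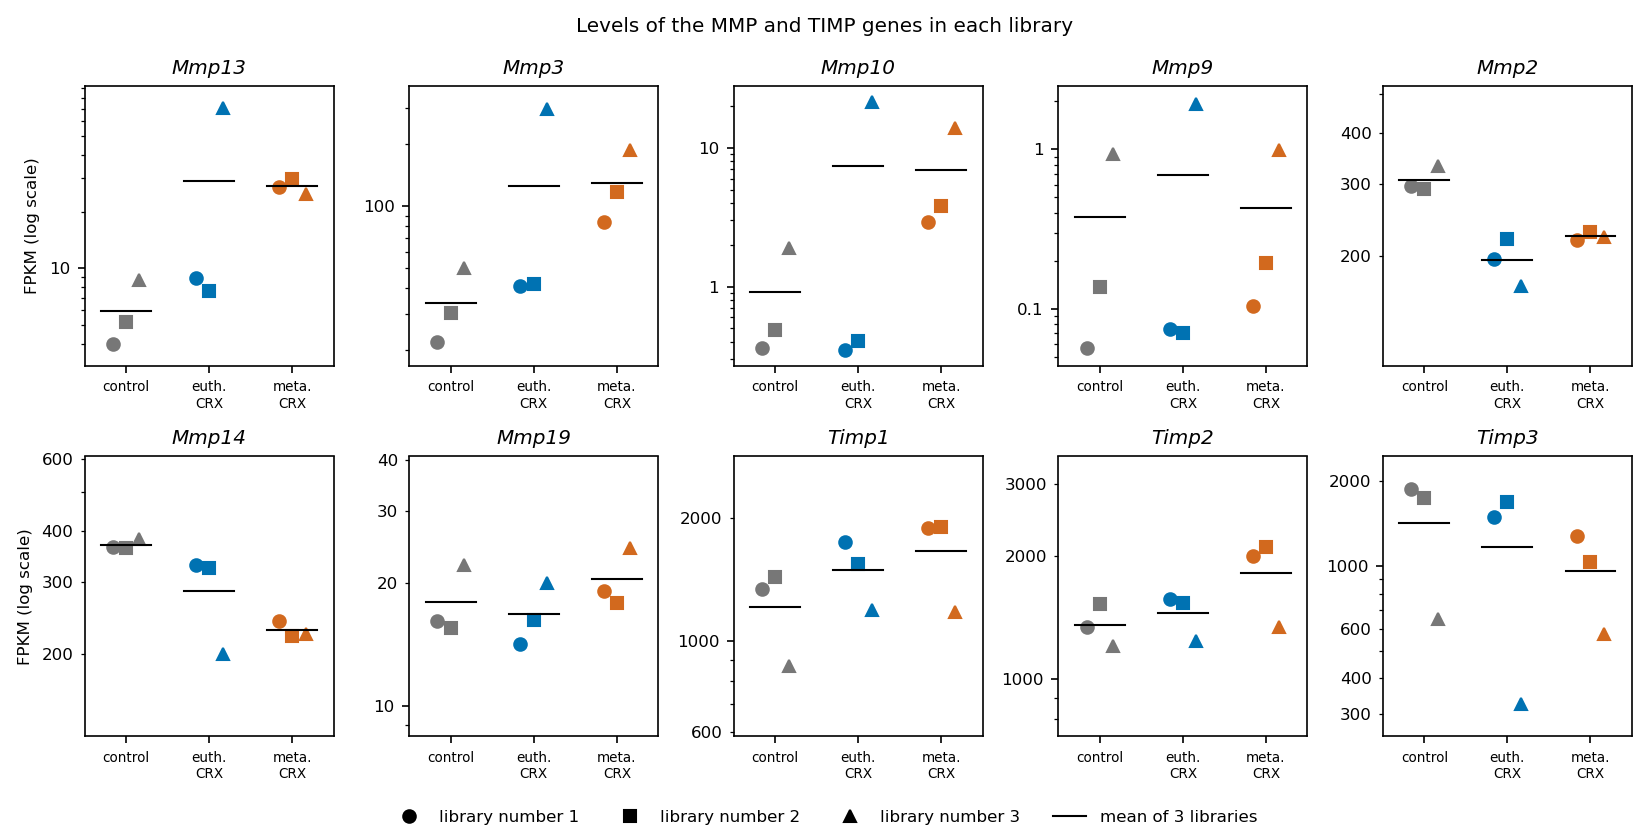
Level of each of the 10 genes in the 9 libraries, as FPKM on a log axis, with control, eutherian CRX and metatherian CRX side by side. Circles, squares and triangles are the libraries numbered 1, 2 and 3, and the line is the mean of the 3; the *Mmp3*, *Mmp10* and *Mmp13* points of metatherian CRX all lie above the control, and the triangle of eutherian CRX lies far above its other libraries for these genes.

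With metatherian CRX, the stromelysins and the collagenase were higher than in control in every library, and *Mmp2* and *Mmp14* were lower in every library. None of the 9 genes tested was called at an adjusted p under 0.05 by the quasi-likelihood test of edgeR, adjusted by Benjamini-Hochberg over the 10100 genes tested, where 3 genes (0.0297%) were called in all. At an unadjusted p under 0.05, 5 of the 9 were higher and 2 lower, beside 9.04% of all genes tested that were higher and 10.5% that were lower. The 3 genes above and the 2 below control in every library stand beside 11% and 12.3% of all genes tested with such a separation. With eutherian CRX, 0 of the 9 were called, beside 0.604% of all genes, and at an unadjusted p under 0.05 there were 3 higher and 1 lower, beside 2.23% and 6.34%. In the same comparison 0 of the 9 lay above and 2 (*Mmp2* and *Mmp14*) below control in every library, beside 6.21% and 7.8% of all genes tested. The median log2 fold change of the 9 genes was 0.40 with metatherian and 0.09 with eutherian CRX, and that of all genes tested was -0.01 and 0.0013. Both comparisons use the same control libraries. Only *Mmp9* of the 10 failed the filter, for which the mean FPKM had to exceed 2 in some group. *Mmp10* passed it only through the CRX groups, with means of 0.913 FPKM in control, 7.40 with eutherian and 6.87 with metatherian CRX. In the eutherian group only replicate 3 exceeded 2 FPKM. The place of *Mmp10* among the 9 thus depended on the groups compared.

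The number of calls among these genes depended on the test and on the libraries. With metatherian CRX against control, DESeq2 called 7 of the 9, all but *Mmp19* and *Timp3*, where it called 9.94% of all genes, and limma voom with quality weights called 9, where it called 46.2%. EdgeR called 4 (*Mmp3*, *Mmp10*, *Mmp13* and *Mmp14*) when fitted to only the 6 libraries compared, beside 3.97% of all genes. Without eutherian CRX replicate 3 it called these 4, *Mmp2* and *Timp1*, beside 8.83%, and without metatherian CRX replicate 3 it called *Mmp3* and *Mmp13*, beside 4.92%. Without the libraries numbered 3 it called all but *Mmp19*, beside 22.2% of all genes. With eutherian CRX against control, DESeq2 called *Mmp2* and *Mmp3*, beside 3.3% of all genes, and voom called 5 of the 9, beside 16.8%. EdgeR called *Mmp2*, *Mmp3* and *Mmp13* without the libraries numbered 3, beside 2.94%.

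**Figure D2:**
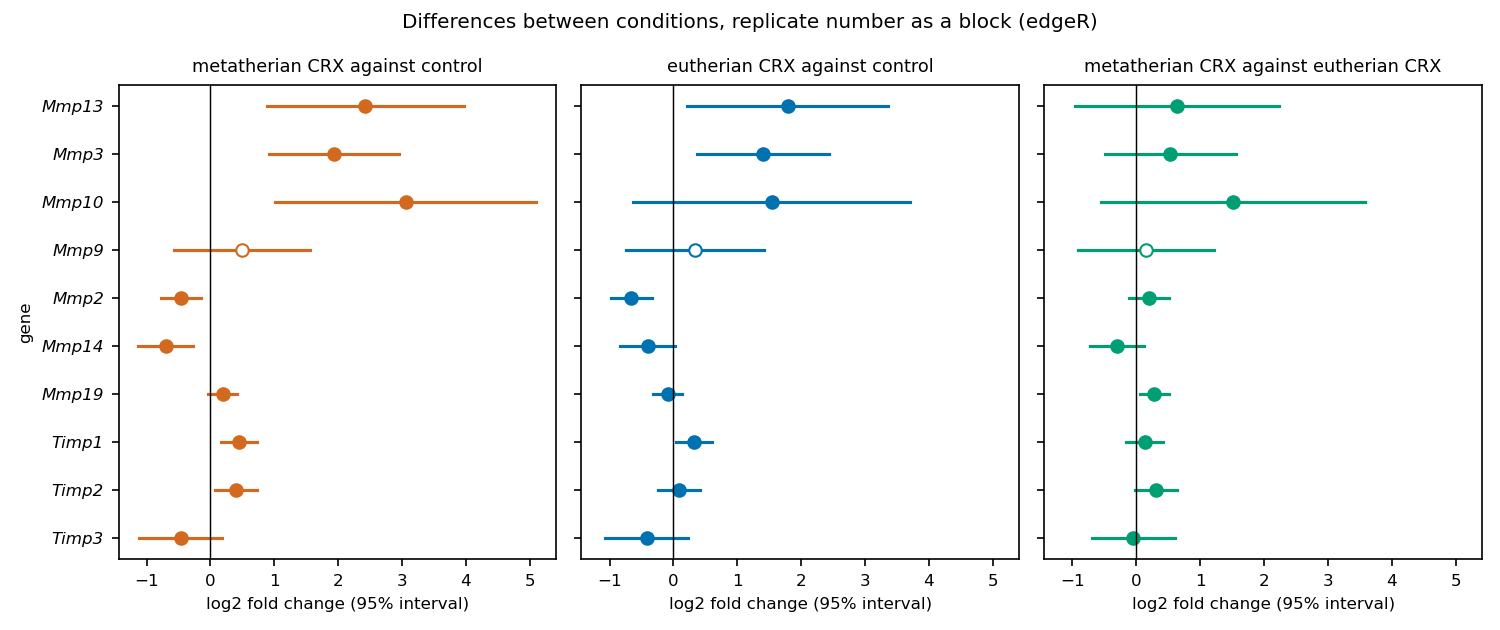
Log2 fold change of each gene in the 3 comparisons from edgeR, with its 95% confidence interval. Filled circles are the 9 genes tested and the open circle is *Mmp9*, from the fit without the FPKM filter; with metatherian CRX against control the intervals of *Mmp3*, *Mmp10* and *Mmp13* lie above 0 and those of *Mmp2* and *Mmp14* below 0.

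*Mmp3* (GRCm38, chromosome 9, 7445822 to 7455975), stromelysin-1, stood at 21.8, 30.4 and 49.9 FPKM in control, at 41.1, 41.9 and 295 with eutherian CRX and at 84.1, 117 and 187 with metatherian CRX, in the order of the library numbers. Every metatherian CRX library was above every control library, and eutherian CRX replicate 3 was the highest of all 9. Metatherian CRX differed from control by a log2 fold change of 1.93 ± 0.43 (SE), a 3.82-fold difference (edgeR adjusted p = 0.102). Between libraries of the same number it was 1.95, 1.94 and 1.90 in log2 CPM, nearly the same although the level in control libraries differed. The study states that samples were prepared in pairs but not which ones, so that libraries of the same number may not be such pairs. With eutherian CRX the log2 fold change was 1.3997 ± 0.43 (edgeR adjusted p = 0.401) and the same-number differences were 0.91, 0.46 and 2.56. Without eutherian CRX replicate 3, edgeR gave 1.94 for metatherian CRX (adjusted p = 0.004062) and 0.69 for eutherian CRX (adjusted p = 0.1476). Without the libraries numbered 3 it gave 1.94 (adjusted p = 0.0002938) and 0.69 (adjusted p = 0.03824), so that *Mmp3* passed the threshold in both comparisons with control in that setting.

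*Mmp10* (chromosome 9, 7502342 to 7510242), stromelysin-2, was low in control at 0.358, 0.485 and 1.90 FPKM. It stood at 0.349, 0.405 and 21.5 FPKM with eutherian CRX and at 2.91, 3.78 and 13.9 FPKM with metatherian CRX. Again all 3 metatherian CRX libraries lay above control, whereas eutherian CRX replicates 1 and 2 were as low as control replicates 1 and 2 and replicate 3 was the highest of the 9. The log2 fold change of metatherian CRX was 3.06 ± 0.86, 8.33-fold (edgeR adjusted p = 0.1404), with same-number differences of 2.97, 2.92 and 2.87. For eutherian CRX it was 1.54 ± 0.91 (edgeR adjusted p = 0.7424), with differences of -0.04, -0.25 and 3.49. That value rested on replicate 3, and without it the log2 fold change was -0.17 (edgeR adjusted p = 0.8811). The metatherian value without eutherian CRX replicate 3 was 2.95 (edgeR adjusted p = 0.003561), and without the libraries numbered 3 it was 2.98 (adjusted p = 0.0003386) and the eutherian value -0.16 (adjusted p = 0.7947). *Mmp3* and *Mmp10* are paralogues, and 3.76% and 3.94% of the 75-base windows of their GENCODE M21 transcripts occur in both, so that few reads could be shared between them.

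*Mmp13* (chromosome 9, 7272514 to 7283333), the collagenase, stood at 3.97, 5.24 and 8.66 FPKM in control, at 8.94, 7.59 and 70.9 with eutherian CRX and at 27.1, 29.9 and 24.8 with metatherian CRX. The metatherian CRX libraries were close to each other and all above control, while in the eutherian group replicate 2 was within the range of control and replicate 3 stood far above the rest. The log2 fold change was 2.42 ± 0.65 for metatherian CRX, 5.36-fold (edgeR adjusted p = 0.1279), and 1.79 ± 0.66 for eutherian CRX (edgeR adjusted p = 0.5075). The same-number differences were 2.77, 2.51 and 1.52 with metatherian and 1.17, 0.54 and 3.03 with eutherian CRX. The metatherian difference of *Mmp13* was smallest in the pair numbered 3, and it varied more between the pairs than that of *Mmp3* or *Mmp10*. Without eutherian CRX replicate 3 edgeR gave 2.27 (adjusted p = 0.007848) and 0.66 (adjusted p = 0.6972), and without the libraries numbered 3 it gave 2.62 (adjusted p = 0.000217) and 0.84 (adjusted p = 0.03808).

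The constitutively high proteases differed in the opposite direction and by less. *Mmp2* (chromosome 8, 92827292 to 92853420), gelatinase A, stood at 298, 291 and 333 FPKM in control, at 197, 221 and 169 with eutherian CRX and at 219, 229 and 223 with metatherian CRX. All 6 CRX libraries were below all 3 control libraries. The log2 fold change was -0.46 ± 0.13 for metatherian CRX (edgeR adjusted p = 0.1478) and -0.66 ± 0.13 for eutherian CRX (edgeR adjusted p = 0.1357), and it was negative in each of the 3 same-number pairs of both comparisons. *Mmp2* was the member with the smallest unadjusted p in the eutherian comparison, 0.001907 by edgeR. With eutherian CRX replicate 3 left out, edgeR gave -0.45 (adjusted p = 0.04184) and -0.52 (adjusted p = 0.2067). By edgeR the values were -0.40 (adjusted p = 0.02331) and -0.50 (adjusted p = 0.04087) without the libraries numbered 3.

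*Mmp14* (chromosome 14, 54431604 to 54441258), the membrane-anchored activator of the MMP2 precursor, stood at 367, 364 and 383 FPKM in control, at 331, 326 and 201 with eutherian CRX and at 241, 222 and 224 with metatherian CRX. All CRX libraries were below control, eutherian CRX replicates 1 and 2 only slightly so. The log2 fold change was -0.70 ± 0.18 for metatherian CRX (edgeR adjusted p = 0.1208), with same-number differences of -0.61, -0.72 and -0.77. For eutherian CRX it was -0.40 ± 0.18 (edgeR adjusted p = 0.614), and without replicate 3 of that group it was -0.17 (edgeR adjusted p = 0.8034). The metatherian value was -0.69 without that library (edgeR adjusted p = 0.01128). With all libraries numbered 3 left out, edgeR gave -0.66 (adjusted p = 0.003009) and -0.16 (adjusted p = 0.4191).

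For *Mmp9* and *Mmp19* the 3 groups overlapped, although both were higher with metatherian CRX than in control in all 3 same-number pairs. *Mmp9* (chromosome 2, 164940744 to 164955850), gelatinase B, stood at 0.0571, 0.137 and 0.934 FPKM in control, at 0.0742, 0.0703 and 1.92 with eutherian CRX and at 0.104, 0.193 and 0.995 with metatherian CRX. In each group the library numbered 3 was the highest. In the fit without the FPKM filter, in which 0.0137% of genes were called with metatherian and 0.623% with eutherian CRX, *Mmp9* was not called and its log2 fold change was 0.49 ± 0.46 for metatherian CRX (edgeR adjusted p = 0.5764) and 0.34 ± 0.46 for eutherian CRX (edgeR adjusted p = 0.8851). *Mmp19* (chromosome 10, 128790910 to 128800824), an MMP outside these subgroups, stood at 16.2, 15.5 and 22.2 FPKM in control, at 14.2, 16.3 and 20.1 with eutherian CRX and at 19.1, 17.9 and 24.3 with metatherian CRX, with overlapping groups. Its log2 fold change was 0.19 ± 0.096 for metatherian CRX (edgeR adjusted p = 0.3214) and -0.09 ± 0.096 for eutherian CRX (edgeR adjusted p = 0.877). The same-number differences with metatherian CRX were 0.24, 0.21 and 0.13 for *Mmp19* and 0.78, 0.48 and 0.09 for *Mmp9*. For *Mmp19* edgeR gave 0.20 (adjusted p = 0.2663) and -0.07 (adjusted p = 0.9101) without eutherian CRX replicate 3, and 0.22 (adjusted p = 0.146) and -0.06 (adjusted p = 0.8078) without the libraries numbered 3. *Mmp19* shares 887 of its 3453 exon bases with the antisense gene *Tmem198b*, and since the strand setting of the counting is not given, reads within the shared bases cannot be told apart.

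In the fit of all libraries, the inhibitors differed from control by less than *Mmp3*, *Mmp10* and *Mmp13* and not all in 1 direction. *Timp1* (chromosome X, 20870166 to 20874737) stood at 1338, 1433 and 868 FPKM in control, at 1745, 1547 and 1194 with eutherian CRX and at 1889, 1905 and 1178 with metatherian CRX. The library numbered 3 was the lowest of each group, and the groups overlapped through it, although *Timp1* was higher than control in all 3 same-number pairs of both comparisons. It had a log2 fold change of 0.45 ± 0.12 for metatherian CRX (edgeR adjusted p = 0.1271) and 0.32 ± 0.12 for eutherian CRX (edgeR adjusted p = 0.5197). Without eutherian CRX replicate 3 the metatherian value was 0.46 (edgeR adjusted p = 0.03981) and the eutherian value 0.25 (adjusted p = 0.7075). With all libraries numbered 3 left out they were 0.45 (edgeR adjusted p = 0.02242) and 0.24 (adjusted p = 0.3141).

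*Timp2* (chromosome 11, minus strand, 118301061 to 118355411), the TIMP that takes part in MMP2 activation, stood at 1343, 1525 and 1208 FPKM in control, at 1576, 1536 and 1239.7 with eutherian CRX and at 2007, 2109 and 1345 with metatherian CRX. Metatherian CRX replicates 1 and 2 were above every other library, and replicate 3 lay within the control range. A log2 fold change of 0.40 ± 0.14 was found for metatherian CRX (edgeR adjusted p = 0.1938) and 0.09 ± 0.14 for eutherian CRX (edgeR adjusted p = 0.9242). The metatherian value without the libraries numbered 3 was 0.52 (edgeR adjusted p = 0.01847) and the eutherian value 0.12 (adjusted p = 0.6678). With only eutherian CRX replicate 3 left out they were 0.41 (edgeR adjusted p = 0.08696) and 0.06 (adjusted p = 0.9256).

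*Timp3* (chromosome 10, 86300412 to 86349505), the matrix-bound inhibitor, varied most between libraries of 1 group among the TIMPs on a log scale. It stood at 1885, 1749 and 648 FPKM in control, at 1492, 1691 and 324 with eutherian CRX and at 1282, 1035 and 573 with metatherian CRX. The libraries numbered 3 were the 3 lowest of the 9, and among the other 6 libraries the metatherian CRX values were the lowest and the control values the highest. EdgeR gave a log2 fold change of -0.47 ± 0.27 for metatherian CRX (edgeR adjusted p = 0.3849) and -0.42 ± 0.27 for eutherian CRX (edgeR adjusted p = 0.7642), and all 3 same-number pairs were negative in both. Without the libraries numbered 3 it was -0.65 for metatherian CRX (edgeR adjusted p = 0.01937) and -0.19 for eutherian CRX (adjusted p = 0.5629). With only eutherian CRX replicate 3 left out it was -0.48 (edgeR adjusted p = 0.1208) and -0.11 (adjusted p = 0.9105). The exons that the deposited table lists for *Timp3* share 0 bases with those of *Syn3*, the antisense gene within which it lies, whereas in the GENCODE M21 transcripts 20.6% of the 75-base windows of *Timp3* also occur in *Syn3*.

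Between metatherian and eutherian CRX, edgeR and DESeq2 made no call in these genes when all libraries were used, whereas limma voom did. EdgeR called 0 of the 9, beside 0% of all genes tested, and *Mmp19* alone had an unadjusted p under 0.05 (0.02256), with a log2 difference of 0.28 ± 0.096 (adjusted p = 0.3588) and a higher value with metatherian CRX in 3 of 3 same-number pairs. Among all genes tested 7.41% were higher and 4.13% lower at that unadjusted threshold. DESeq2 also called 0 of the 9, beside 3.14% of all genes, and voom called 7, beside 48.3%. In every library above eutherian CRX stood 0 of the 9 and below it 0, beside 6.23% and 5.3% of all genes tested. The intervals were wide for the stromelysins and the collagenase. The log2 difference of metatherian minus eutherian CRX was 0.53 for *Mmp3* (95% confidence interval -0.48 to 1.55), 1.52 for *Mmp10* (-0.55 to 3.59) and 0.63 for *Mmp13* (-0.96 to 2.23). Without the replicate block the difference of *Mmp10* turned to -0.11 and that of *Mmp13* to -0.096. In the same-number pairs it was 3.002, 3.17 and -0.62 for *Mmp10*, and it had the same pattern of signs for *Mmp3* (1.03, 1.48 and -0.66) and *Mmp13* (1.60, 1.98 and -1.51). Metatherian CRX was thus higher in the pairs numbered 1 and 2 and lower in the pair numbered 3. Without eutherian CRX replicate 3, edgeR called these 3 genes, with log2 differences of 1.25 (adjusted p = 0.01612), 3.12 (adjusted p = 0.01082) and 1.61 (adjusted p = 0.04331), where 3.47% of all genes were called. Without the libraries numbered 3, *Mmp14* at -0.50 (adjusted p = 0.008589) and *Timp2* at 0.41 (adjusted p = 0.0434) were called by edgeR too, where 22.5% of all genes were called. For *Mmp2*, *Timp1* and *Timp3* with all libraries the intervals were -0.12 to 0.51, -0.15 to 0.41 and -0.70 to 0.60.

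The makeup of the protease transcripts differed more than their sum. The 7 MMP genes summed to 707, 707 and 799 FPKM in control, to 592, 613 and 779 with eutherian CRX and to 593, 619 and 699 with metatherian CRX. The metatherian sums lay below every control sum, and the eutherian range overlapped that of control. *Mmp3*, *Mmp10* and *Mmp13* made up 3.70%, 5.10% and 7.57% of this sum in control, 8.51%, 8.13% and 49.7% with eutherian CRX and 19.2%, 24.3% and 32.3% with metatherian CRX. Every CRX library lay above every control library in this share, and the metatherian libraries lay between eutherian CRX replicate 3 and the rest of that group. The share of *Mmp2* and *Mmp14* was 89.5% to 94.0% in control, 47.5% to 89.2% with eutherian and 64.1% to 77.5% with metatherian CRX. The 3 TIMP genes summed to 6.46, 6.65 and 3.41 times the MMP sum in control, 8.13, 7.79 and 3.54 times with eutherian and 8.73, 8.15 and 4.43 times with metatherian CRX. This ratio of inhibitor to protease transcripts was higher with each CRX than in the control library of the same number, and it was lower in the 3 libraries numbered 3 than in the other 6. It is a ratio of transcripts, and protein or activity was not measured. *Timp3* made up 41.3%, 37.2% and 23.8% of the TIMP sum in control, 31.0%, 35.4% and 11.8% with eutherian and 24.8%, 20.5% and 18.5% with metatherian CRX.

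**Figure D3:**
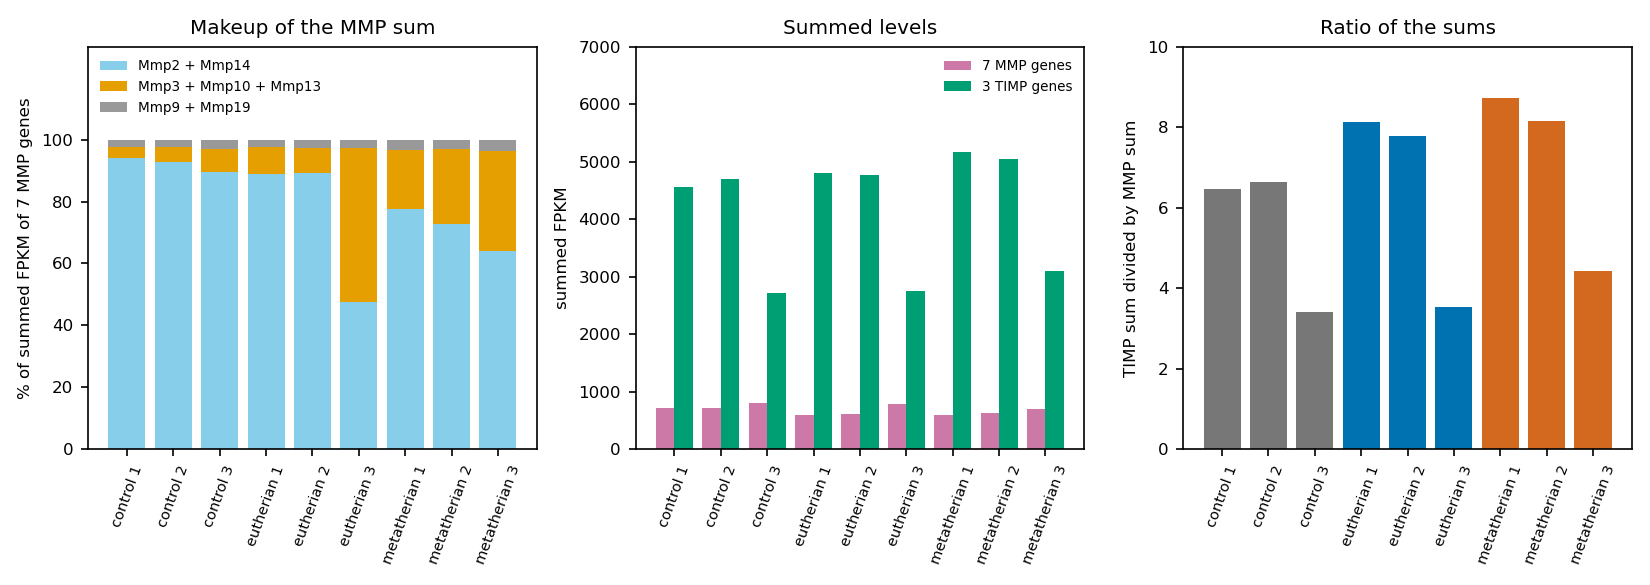
Makeup and sums of the 7 MMP and 3 TIMP genes in the 9 libraries. The panels show the shares of *Mmp2* with *Mmp14*, of *Mmp3* with *Mmp10* and *Mmp13*, and of *Mmp9* with *Mmp19* in the MMP sum in percent, the summed FPKM, and the TIMP sum divided by the MMP sum; *Mmp3*, *Mmp10* and *Mmp13* together reach 49.7% in eutherian CRX replicate 3 and stay at or below 7.57% in control, and the ratio is lowest in the libraries numbered 3.

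Within the groups, *Mmp3*, *Mmp9*, *Mmp10*, *Mmp13* and *Mmp19* varied together and against the inhibitors. After the mean of its group was subtracted from each library, the log2 CPM of *Mmp3*, *Mmp9*, *Mmp10* and *Mmp13* correlated with each other at r = 0.82 to 0.99 over 9 libraries (6 pairs of genes). With the 3 TIMP genes they correlated at -0.99 to -0.43 (12 pairs), and the TIMP genes correlated with each other at 0.76 to 0.92. The same 4 proteases correlated with *Mmp2* and *Mmp14* at -0.91 to -0.33 (8 pairs). *Mmp19* correlated with *Mmp3*, *Mmp9*, *Mmp10* and *Mmp13* at 0.78, 0.89, 0.83 and 0.62. With *Timp1*, *Timp2* and *Timp3* it correlated at -0.98, -0.88 and -0.88. These values are descriptions, since all genes share the libraries and the deviations rest largely on the libraries numbered 3. Over the 9 libraries without that subtraction, the genes whose log2 CPM was most like *Mmp3* were *Ptpre*, a receptor-type tyrosine phosphatase, *Arhgap6* and *Bmp2*, a secreted growth factor, all at r = 0.98. Most like *Mmp10* were *Itga2*, a subunit of a collagen-binding integrin, *Pogk* and *Prl2c3*, a prolactin-family hormone, all at 0.99. *Mmp13* was most like *Tmem179* at 0.99, and like *Capg*, an actin-capping protein, and *Mrpl19*, a mitochondrial ribosomal protein, both at 0.98. For *Timp3* they were *Prnp*, the prion protein, *Plcb1*, a phospholipase C, and *Cav1*, caveolin-1, at 0.99, 0.99 and 0.98, and for *Mmp2* they were *Mgll*, *Plk4* and *Itga8* at 0.98, 0.96 and 0.96. *Mmp14* was most like *H2afy2*, *Aff3* and *Ada* at 0.99, 0.98 and 0.98, and *Timp1* most like *Sqrdl*, *Tslp* and *Pctp* at 0.97, 0.97 and 0.96. *Timp2* was most like *4930523C07Rik*, *Prg4* and *Tslp* at 0.98, 0.98 and 0.97, *Mmp19* most like *Klhl24*, *Dync1li1* and *Pmaip1* at 0.97, 0.96 and 0.95, and *Mmp9* most like *Igf2bp1*, *Rufy1* and *Tbx3* at 0.99, 0.98 and 0.98.

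In the cluster on chromosome 9, the low genes *Mmp1a* and *Mmp1b* differed in the same direction as *Mmp3*, *Mmp12* did not, and the genes outside the MMP family had smaller fold changes than *Mmp3*. The window of 1000 kb on either side of the cluster held 20 genes, of which 10 were tested and 16 passed edgeR's filterByExpr, and the following values are from the fit with that filter alone. *Mmp1a*, an interstitial collagenase gene 18.3 kb from the start of *Mmp3*, was at 0, 0.0328 and 0.372 FPKM in control, at 0.0685, 0.0147 and 4.02 with eutherian CRX and at 0.556, 0.728 and 2.63 with metatherian CRX. The 3 metatherian CRX libraries were above control, and the highest value was again that of eutherian CRX replicate 3. Its log2 fold change was 4.61 for metatherian CRX (edgeR adjusted p = 0.1022) and 2.60 for eutherian CRX (edgeR adjusted p = 0.5176). *Mmp1b*, which shares 12.8% of its 75-base windows with *Mmp1a* or *Mmp12*, had log2 fold changes of 2.15 (edgeR adjusted p = 0.08133) and 2.09 (adjusted p = 0.1201). *Mmp12*, macrophage elastase, stood at 0.843, 0.486 and 0.262 FPKM in control, 0.347, 0.407 and 0.798 with eutherian CRX and 0.0307, 0.0434 and 0.780 with metatherian CRX, so that metatherian CRX replicates 1 and 2 were the lowest and the groups overlapped. Its log2 fold change with metatherian CRX was -1.95 (edgeR adjusted p = 0.386). *Mmp7*, *Mmp8*, *Mmp20* and *Mmp27* had at most 14 counts in a library and did not pass the filter. The 10 genes outside the MMP family had log2 fold changes between -0.53 and 0.61 in the comparisons with control, with both of these extremes at *Trpc6*, a calcium channel gene, at the far end of the window. *Yap1* and *Birc3* lay between -0.10 and 0.07.

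**Figure D4:**
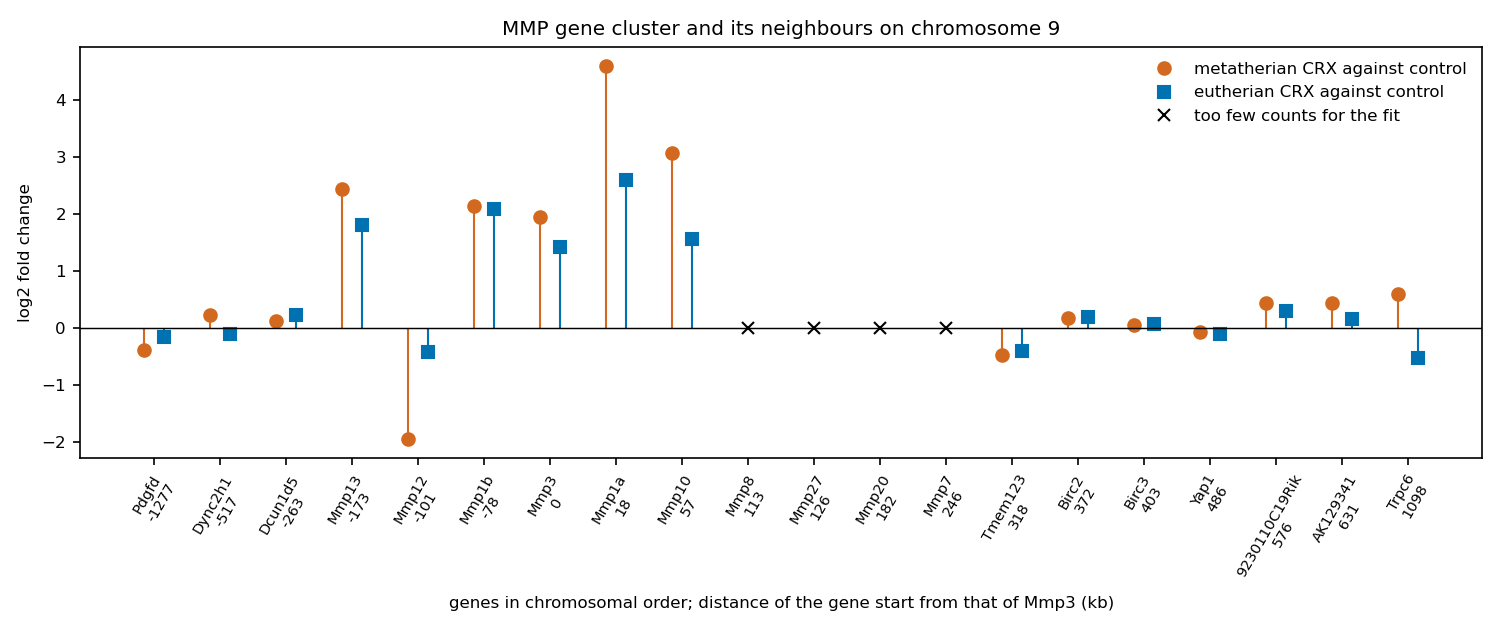
Log2 fold change of the 20 genes in and around the MMP cluster of chromosome 9 for metatherian and eutherian CRX against control, in chromosomal order with the distance of each start from that of *Mmp3* in kb. Crosses mark the 4 genes with too few counts; *Mmp13*, *Mmp1b*, *Mmp3*, *Mmp1a* and *Mmp10* lie above 0 for both, with 4.61 for *Mmp1a* with metatherian CRX.

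Other genes of matrix proteolysis were taken from lists chosen by function. Of the 16 other MMP genes 6 were tested, and at an unadjusted p under 0.05 there was 1 lower and 0 higher in each comparison with control, namely *Mmp11* with metatherian CRX (-0.58, edgeR adjusted p = 0.1615) and *Mmp23* with eutherian CRX (-1.19, edgeR adjusted p = 0.4221). In the fit with filterByExpr alone 11 of the 16 were tested, with 2 higher (*Mmp1a* and *Mmp1b*) and 3 lower with metatherian CRX and the same 2 higher and 2 lower with eutherian CRX, beside 9.61% and 10.8%, and 2.49% and 7.16%, of the 14599 genes of that fit. *Mmp17*, a membrane-anchored MMP, had the smallest p there, with all CRX libraries below control and log2 fold changes of -2.03 and -1.79 (edgeR adjusted p = 0.06351 and 0.06162). Among the other MMP inhibitors, *Reck*, a membrane-anchored inhibitor, was at -0.91 with metatherian CRX (edgeR adjusted p = 0.2441). The 9 ADAMTS proteases tested, which cleave procollagens and proteoglycans, all had a fitted log2 fold change below 0 in both comparisons with control, beside 5176 and 5015 of the 10100 genes tested. With eutherian CRX the mean CPM of *Adamts3* (19.8 against 17.0) and *Adamts9* (91.1 against 83.3) was nevertheless above control. In the fit with filterByExpr alone 15 were tested, of which 0 were above 0 with metatherian and 1 with eutherian CRX. At an unadjusted p under 0.05, 4 of the 9 were lower with metatherian and 5 with eutherian CRX, beside 10.5% and 6.34% of all genes tested. Their median log2 fold change was -1.04 and -0.85. *Adamts10* was at -0.86 (edgeR adjusted p = 0.09482), *Adamts2*, a procollagen peptidase, at -1.44 (adjusted p = 0.09743) and *Adamts14* at -1.31 (adjusted p = 0.102) with metatherian CRX. *Adamts14* passed the FPKM filter through the control group alone. With eutherian CRX *Adamts10* was at -0.70, *Adamts12* at -1.21 and *Adamts14* at -0.86 (edgeR adjusted p = 0.2609, 0.4072 and 0.4491). The 7 ADAM sheddases held the 1 call of all these lists, and at an unadjusted p under 0.05 there were 2 higher and 1 lower with metatherian and 0 higher and 3 lower with eutherian CRX, beside 9.04% and 10.5%, and 2.23% and 6.34%, of all genes tested. *Adam8* was at 0.97 and *Adam10* at 0.23 with metatherian CRX (edgeR adjusted p = 0.2532 and 0.2408), and *Adam19* was at -0.55 and *Adam9* at -0.61 with eutherian CRX (edgeR adjusted p = 0.4003 and 0.4491). *Adam12* stood at 3.08, 3.05 and 4.88 FPKM in control, at 1.396, 1.16 and 1.44 with eutherian CRX and at 1.25, 1.12 and 2.32 with metatherian CRX, with every CRX library below control. It passed the FPKM filter through the control group alone, with means of 3.67 FPKM in control, 1.33 with eutherian and 1.56 with metatherian CRX. It fell with eutherian CRX (log2 fold change -1.42 ± 0.18, edgeR adjusted p = 0.03535) and was at -1.27 ± 0.18 with metatherian CRX (edgeR adjusted p = 0.07171). The call was lost in 10 of 19 alternative settings, among them the fit without the replicate block, the fit of only the 6 libraries compared and 8 of the 9 fits without 1 library, while the log2 fold change stayed between -1.57 and -1.21. Without eutherian CRX replicate 3 it was -1.21 (edgeR adjusted p = 0.06637).

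Regulators of MMP activation and transcription held no call in either comparison with control. In the plasminogen system, whose protease plasmin activates MMP precursors, 6 of 7 genes were tested, and *Serpinb2*, an inhibitor of plasminogen activators, was at 2.27 with metatherian CRX (edgeR adjusted p = 0.09743) and 1.18 with eutherian CRX (adjusted p = 0.5815). *Serpine2*, a further inhibitor, was at 0.56 and 0.37 (edgeR adjusted p = 0.1161 and 0.5062). Among the proprotein convertases and the MMP inducer basigin, with 4 of 5 tested, *Pcsk6* was at -1.53 with metatherian CRX (edgeR adjusted p = 0.1099). None of these 4 had an unadjusted p under 0.05 with eutherian CRX. In the fit with filterByExpr alone all 5 were tested, and 2 were lower with metatherian and 1 with eutherian CRX at that threshold, beside 10.8% and 7.16% of all genes. *Pcsk5*, tested only there, was below control in every CRX library and at -0.66 with metatherian CRX (edgeR adjusted p = 0.0833). Of the AP-1 and ETS factors, 11 of 13 were tested. At an unadjusted p under 0.05, 2 were higher and 2 lower with metatherian CRX, and 0 higher and 2 lower with eutherian CRX, beside 9.04% and 10.5% of all genes with metatherian and 2.23% and 6.34% with eutherian CRX. *Etv5* was at 0.52, *Ets2* at -0.43 and *Fosl2* at -0.36 with metatherian CRX (edgeR adjusted p = 0.11, 0.1208 and 0.2099). With eutherian CRX *Fos*, an AP-1 subunit, was at -0.90 and *Ets2* at -0.27 (edgeR adjusted p = 0.08787 and 0.5815). Of the 7 cathepsins, lysosomal proteases, 4 were higher and 0 lower with metatherian CRX at that threshold, beside 9.04% and 10.5% of all genes tested, with *Ctsl* at 0.75, *Ctsh* at 0.75 and *Ctsb* at 0.47 (edgeR adjusted p = 0.08711, 0.1007 and 0.1159), and with eutherian CRX 1 was lower, *Ctsk* at -0.49 (adjusted p = 0.1599).

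Markers of fibroblasts and of other cells moved with some of these values. All 9 fibroblast markers were detected in every library, so that markers of the labelled cell type were present, and their summed level was 24813 to 33242 CPM in control, 7790.4 to 23518 with eutherian CRX and 8427 to 18200 with metatherian CRX. Every CRX library was below every control library in this sum, and the lowest of the 9 was eutherian CRX replicate 3, which had the highest *Mmp3*, *Mmp10* and *Mmp13*. With metatherian CRX, 7 of the 9 were lower and 1 higher at an unadjusted p under 0.05 (edgeR), with a median log2 fold change of -1.28, and with eutherian CRX 3 were lower and 0 higher, with a median of -0.48. Among all genes tested 10.5% were lower and 9.04% higher with metatherian CRX, and 6.34% and 2.23% with eutherian CRX. With metatherian CRX *Thy1* was at -1.14, *Pdgfra* at 0.58 and *Pdgfrb* at -0.90 (edgeR adjusted p = 0.09611, 0.09877 and 0.1087), and with eutherian CRX *Thy1* was at -1.34, *Col1a2* at -1.27 and *Col1a1* at -1.43 (edgeR adjusted p = 0.0882, 0.4246 and 0.4563). Of the 11 macrophage markers 10 were in the table, with 0 to 3 of them at 0 counts in a library, and 2 were tested, of which *Cd68* was at -0.84 with metatherian CRX (edgeR adjusted p = 0.2235). In the fit with filterByExpr alone 9 were tested, and all 9 were below 0 in both comparisons with control, beside 7487 and 7149 of its 14599 genes. At an unadjusted p under 0.05, 5 of these 9 were lower with metatherian and 0 with eutherian CRX, beside 10.8% and 7.16% of all genes of that fit. The 10 macrophage markers summed to 12.8 to 48.0 CPM in control, 5.56 to 26.7 with eutherian and 6.04 to 12.0 with metatherian CRX. The 5 neutrophil markers, of which 0 were tested, summed to 0.174 to 0.420 CPM in control, 0.618 to 0.895 with eutherian and 0.844 to 0.910 with metatherian CRX. Every CRX library was thus above every control library in this low sum. The 5 endothelial markers summed to 11.4 to 18.6 CPM over the 9 libraries. The 6 epithelial markers summed to 0.873, 1.17 and 3.64 CPM in control, 0.492, 0.716 and 12.7 with eutherian and 1.87, 2.55 and 9.15 with metatherian CRX, so that the library numbered 3 was the highest of each group. Most of this sum in those libraries was *Krt18*, at 3.04, 12.0 and 8.32 CPM, with a log2 fold change of 1.98 with metatherian CRX (edgeR adjusted p = 0.2233). The part of these markers in the MMP and TIMP values was not tested.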

How the data were processed

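PolyA RNA of 9 libraries was sequenced in 1 run. The authors used STAR v2.4.0 for alignment to mm10 (GRCm38) and featureCounts v1.4.6 for counting, and the deposited values are raw counts per gene. Their annotation release, strand option and handling of multiply aligned reads are not given in the sources used here. Counts were analysed with edgeR 4.0.16 in R 4.3.3. Of 22068 genes, filterByExpr kept 14599, of which 10100 exceeded a mean FPKM of 2 in some condition. FPKM was computed from the deposited counts, the TMM-scaled library size (factors 0.960 to 1.11) and the length of the merged exons that the deposited table lists for each gene. A single quasi-likelihood fit of the 9 libraries included the replicate number as a block, because the study describes paired preparation of samples, and adjusted p-values are Benjamini-Hochberg values over all genes tested. Standard errors are the log2 fold change over the root of the F statistic, and log2 CPM used a prior count of 2. All replicates differed by more than sampling noise (chi-square over degrees of freedom at least 22.0).

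The members and gene lists were chosen with earlier results of these data known. The genes named are the 10 members, in each list up to 3 genes per comparison with control by smallest p among those with an unadjusted p under 0.05, the genes around *Mmp3*, and the 3 genes most like each member. The alternatives were no block, relative-log-expression and upper-quartile scaling, 3 other filters, DESeq2 1.42.0, limma 3.58.1 voom with quality weights, only the 6 libraries compared, and each library left out. Leaving out all libraries numbered 3 was added after the data had been seen. The tests were tested on simulated data. Depth was 54145701 to 94699657 counts per library, and counting error is small beside the spread of the libraries except for *Mmp9*, *Mmp1a* and *Mmp1b*. The embryo data of the study were not analysed here.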

Additional observations from a re-analysis of the deposited data

How the results depend on the processing

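The number of the 9 tested genes called at an adjusted p under 0.05 was 0 in each comparison and depended on the test and on the libraries numbered 3. DESeq2 called 7 with metatherian CRX and 2 with eutherian CRX against control (9.94% and 3.3% of all genes), and limma voom with quality weights called 9 and 5, and 7 between the orthologues (46.2%, 16.8% and 48.3%). The fit of only the 6 libraries compared called 4 with metatherian CRX (*Mmp3*, *Mmp10*, *Mmp13* and *Mmp14*). Leaving out 1 library gave 0 to 6 calls with metatherian CRX, with 6 without eutherian CRX replicate 3 and 2 (*Mmp3* and *Mmp13*) without metatherian CRX replicate 3, 0 calls with eutherian CRX in all 9 fits, and 0 to 3 between the orthologues, with 3 without eutherian CRX replicate 3. Without the libraries numbered 3, 8, 3 and 5 genes were called, where 22.2%, 2.94% and 22.5% of all genes were. Other scalings and filters called 0. Without the replicate block 0 were called in each comparison and 4, 3 and 0 had an unadjusted p under 0.05, against 7, 4 and 1 with it. The pairing check found correlations of deviations from the group means above 0.1 in 8 of 9 pairs of libraries with the same number (lowest 0.0034) and in 5 of 18 with different numbers, which leaves the pairs unidentified. Without the block *Mmp10* and *Mmp13* turned to -0.11 and -0.096 between the orthologues. *Mmp10* with eutherian CRX ranged from -0.17 to 2.30 when 1 library was left out, and turned to -0.17 without eutherian CRX replicate 3 and to -0.16 without the libraries numbered 3. *Timp3* between the orthologues ranged from -0.38 to 0.23 when 1 library was left out, and was 0.018 and 0.23 without eutherian CRX replicates 1 and 2 and 0.017 and 0.20 without metatherian CRX replicates 1 and 2. The cause of these changes was not tested. Of the other fold changes under the alternatives, 447 kept their direction and their side of the threshold and 61 kept their direction and passed it. With metatherian CRX against control, *Mmp3* stayed between 1.67 and 2.22 (adjusted p 4.492e-05 to 0.4255), *Mmp10* between 2.53 and 3.66 and *Mmp13* between 2.03 and 2.95. Counts of *Mmp9* limit what can be said of it.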
